A study of Hordeum vulgare with 8 samples.

Results

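MLOC_62051.5 and AK249008.1 are the genes of the AL7.1 awn length region that carry a heavy metal transport/detoxification annotation. They were chosen by transcript name, and every site that the deposited variant table lists for them was taken, whatever its filter value. This gave 29 of 140560 sites and 2 of 40344 transcripts, with 10 sites in MLOC_62051.5 and 19 in AK249008.1. Both are high confidence (HC) genes placed at 133.924 cM on chromosome 7H of barley (Hordeum vulgare). They were the only members of the 123 genes listed for the segregating region whose annotation names heavy metals, and both are among the 66 genes of the fine-mapped interval, which marker 2_0483 in AK249008.1 bounds on one side.

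RNA was sequenced from shoot apices of near isogenic lines (NILs), which were derived from the recombinant heterogeneous inbred family line DM1-e35R. Their shared genetic background is mostly Morex, with other segments introgressed from wild barley. The line e35RM carries the allele of cv. Morex at AL7.1 and has long awns, and e35RD carries the allele of the wild barley HID382 (D) and has short awns. Both lines were kept in a greenhouse with a day of 16 h (22 °C) and a night of 8 h (18 °C), without any treatment, and several apices were pooled when they had reached Waddington stage 5.5, at which the flowers of the young spike are forming. Each line had 4 libraries, 8 in all, which stand in 1 column per line, so no value below has a replicate error, and differences between the lines could not be compared with the spread between libraries. The lines were selected for opposite alleles at AL7.1, and different alleles in genes of this interval follow from that selection. The origin of the RNA was not checked against apex markers, since the table lists variant sites and not the expression of all genes.

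Proteins of this superfamily have a heavy metal-associated (HMA) domain, a small fold that binds metal ions through a pair of conserved cysteines. The domain is found in copper chaperones, which hand copper to other proteins inside the cell, and in metal-pumping ATPases. In plants it also occurs in a large group of proteins that bear a site for a lipid anchor, several of which have been tied to cadmium or copper tolerance in Arabidopsis. The cellular role of either barley gene is not known from the sources used here. The gene list gives both the same closest match in Brachypodium (Bradi1g62660.1), rice (LOC_Os03g22490.1), Aegilops (AEGTA29404) and Arabidopsis (AT1G23000.1). In sorghum the entries differ only in their last digit, with Sb01g035560.2 for MLOC_62051.5 and Sb01g035560.1 for AK249008.1. Their sequences were not compared here, and reads from any stretch that they share could have been split between them, so the values of each are uncertain to that extent.

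The alleles were compared first by the changes that alter length, because an insertion is easy to recognise in sequence. Each transcript had a passing site at which e35RM was called homozygous for the reference and e35RD homozygous for an insertion of 6 bases. They are shown with the reference base in lower case and the inserted bases in capitals, on the transcript strand and with positions counted from 1 at the first base of the transcript.
MLOC_62051.5, position 654: tCCGGCG
AK249008.1, position 1042: aCGCCAC
Both insertions have a length that is a multiple of 3 and consist of C and G, except for 1 A in that of AK249008.1. At position 654 of MLOC_62051.5, e35RM had 8 reads, all without the insertion, and e35RD had 6 reads, all with it. The insertion was therefore seen in every read of one line and in no read of the other, at a depth that allows a non-reference share of up to 36.9% in e35RM and down to 54.1% in e35RD (95% Clopper-Pearson intervals, which cover counting error only). At position 1042 of AK249008.1 the depth was lower, with 3 reads without the insertion in e35RM and 3 of 4 reads with it in e35RD. The interval of the e35RD share, 19.4% to 99.4%, is wide at this depth. The whole table held 10 passing insertions or deletions with opposite homozygous calls at any depth, 5 of them in the segregating region, and the pair in these genes made up the insertions of 6 bases among those 5.

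AK249008.1 also holds marker 2_0483, which was scored as a difference in fragment size. The primers are given because they are the assay by which this gene bounded the interval. Where they anneal in the transcript was not determined here, nor whether the insertion at position 1042 lies between them.
2_0483 forward primer: tgagaaagaggaggcgaaag
2_0483 reverse primer: ctcggtgaaatcacatgacg

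Single-base changes are written with the reference base first, then the position in the transcript, then the other base. Over both genes and every filter value, 20 of the 29 sites had opposite homozygous calls, and at all 20 the reference allele was in e35RM and the non-reference allele in e35RD. The study names cv. Morex as its reference sequence, and e35RM was selected for the Morex allele at AL7.1. This direction follows from the design wherever the reference base is that of Morex. Whether it is at these sites was not checked. Summed over these sites, e35RM had 183 reference reads and 0 non-reference reads, and e35RD had 267 non-reference reads and 3 reference reads. A read that spans neighbouring sites is counted at each of them, so these sums are not numbers of independent reads. Of the other sites, 6 were called reference in both lines, 1 non-reference in both, and 2 had no call in at least 1 line. The columns of a Morex sample were not used. The alleles of that sample, and why sites with the reference call in both lines are listed, were therefore not examined.

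**Figure D1:**
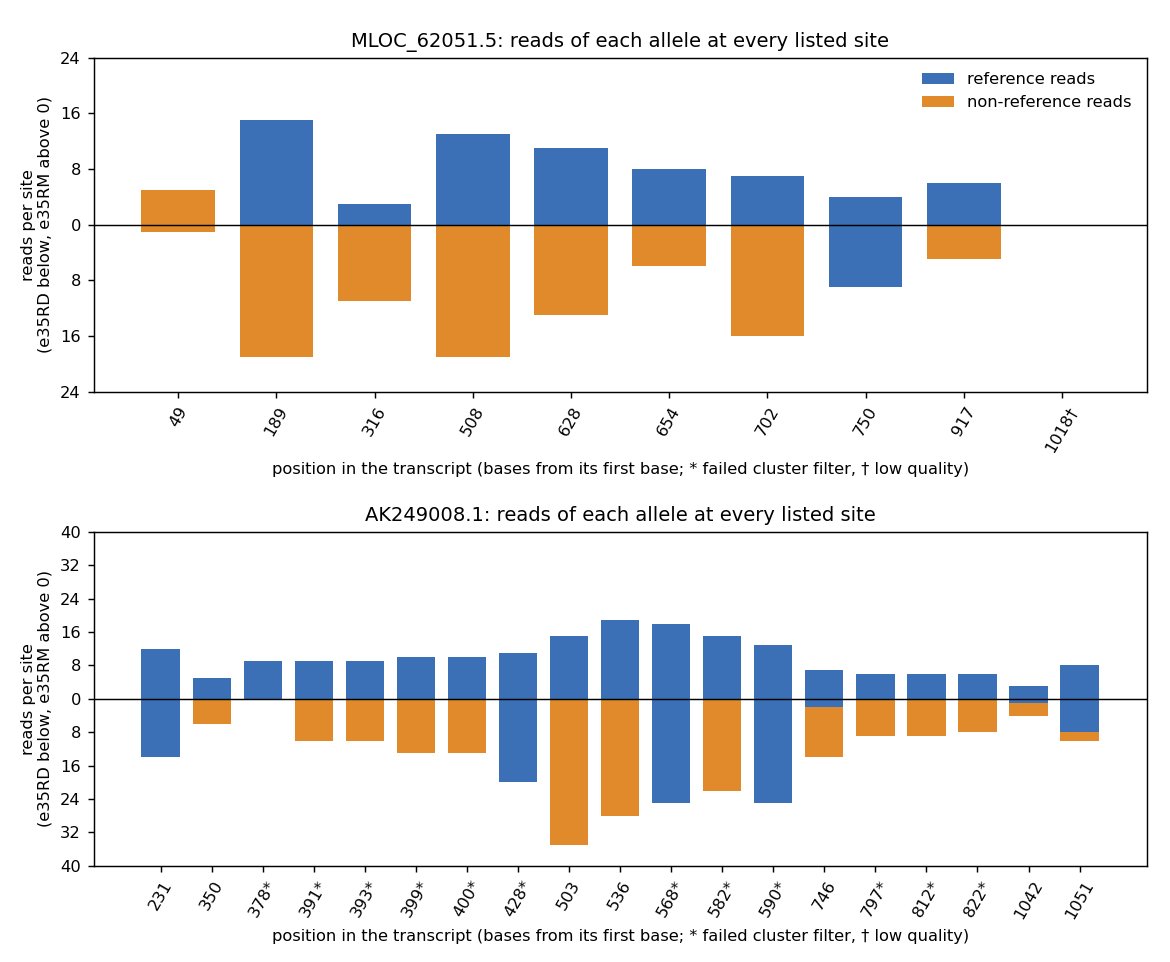
Reads with the reference allele (blue) and with the non-reference allele (orange) at each of the 10 sites of MLOC_62051.5 and the 19 sites of AK249008.1, with e35RM above 0 and e35RD below 0 on the y axis and sites in order of transcript position on the x axis. Blue over orange marks the 7 and 13 sites with opposite calls, and at positions 746 and 1042 of AK249008.1 e35RD also has blue, for its 3 reference reads.

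In MLOC_62051.5, 7 sites from position 189 to 917 had opposite homozygous calls, and all 7 passed the filter. The deepest was G189C, where the 15 reads of e35RM had the reference base and the 19 reads of e35RD had the other base. At G508A the lines had 13 and 19 reads, divided in the same way. No read of the other allele was seen in either line at these or the remaining 5 sites. G628C had 11 reads in e35RM and 13 in e35RD, and G702A had 7 in e35RM and 16 in e35RD. A917G had 6 reads in e35RM and 5 in e35RD, and G316A had 3 in e35RM and 11 in e35RD, which makes the first the thinnest site by total depth and the second the thinnest in e35RM. The insertion at position 654 completes the set.

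For the main comparison a site had to pass the filter of the authors, be a single-nucleotide site and have at least 5 reads in each line. In the whole table, 159 of 33188 such sites with homozygous calls in both lines (0.479%) had opposite calls. MLOC_62051.5 had 5 sites in use, G189C, G508A, G628C, G702A and A917G, and all 5 were opposite. AK249008.1 had 6 sites in use, of which 4 were opposite, namely G350A, C503T, T536A and T746C. At 102 of the 159 opposite sites of the table the non-reference base was in e35RD, as it was at all 52 opposite sites of the segregating region. Within the region this direction follows from the selection of the lines wherever the reference base is that of Morex, which was not checked.

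The allele reads of the lines were then compared at each site by a two-sided Fisher's exact test, with Benjamini-Hochberg adjustment over 39013 sites. For a call, the adjusted p had to be under 0.05, and the other allele had to make up no more than 0.1 of the reads of one line and 0.9 or more of those of its partner. The test compares the reads of each line as a whole and not plants. It called 50 of the 39013 sites (0.128%), 6 of them in these genes. In MLOC_62051.5, 4 sites were called, with adjusted p-values of 4.8e-07 at G189C, 2.4e-06 at G508A, 0.00032 at G628C and 0.0032 at G702A. A917G, whose reads were as cleanly divided, was not called, with an unadjusted p of 0.0022 and an adjusted p of 1, at 11 reads over both lines. In AK249008.1 the 2 called sites were T536A, with an adjusted p of 1.5e-10, and C503T, with 4.3e-10.

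C503T and T536A were the deepest of all the sites in use. At C503T e35RM had 15 reads, all with the reference base, and e35RD had 35, all with the other base. T536A had 19 reads in e35RM and 28 in e35RD, again with a different base in each line. The non-reference share had an upper bound of 21.8% in e35RM at C503T and of 17.6% at T536A, and a lower bound in e35RD of 90% at C503T and 87.7% at T536A. Both lie 5′ of the thinner sites in the second part of the transcript. G350A, with 5 reads in e35RM against 6 in e35RD, gave an adjusted p of 1.

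T746C was the opposite site at which the alleles were least cleanly divided among those in use. Here e35RM had 7 reference reads, and e35RD had 2 reference and 12 non-reference reads. The non-reference share of e35RD was 85.7% (57.2% to 98.2%), under the limit of 0.9, and the adjusted p was 0.22. The other sites with both alleles in a line were the insertion at position 1042, with 1 reference read of 4 in e35RD, and G1051C. G1051C was called reference in both lines, yet e35RD had 2 non-reference reads of 10 (20%, 2.52% to 55.6%) against 0 of 8 in e35RM, a difference that gave an unadjusted p of 0.48 in Fisher's exact test. All 3 sites lie at or beyond position 746.

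The cluster filter, which marks single-base variants that lie close together, bore on AK249008.1 alone. It failed 12 of its 19 sites and no site of MLOC_62051.5. The failed sites formed a group of 6 over 51 bases (positions 378 to 428), a group of 3 over 23 bases (568 to 590) and a group of 3 over 26 bases (797 to 822). The groups held 4, 1 and 3 sites with opposite homozygous calls. Thus 8 of the 13 opposite sites of AK249008.1 are left out by the filter, and with failed sites admitted its count of opposite sites in use rose from 4 to 12, while that of MLOC_62051.5 stayed at 5. Over the whole table the same change gave 520 opposite sites of 48854 (1.06%).

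Reads at the failed sites were as cleanly divided as at the passing ones. At G391C and at G393C, e35RM had 9 reference reads and e35RD had 10 non-reference reads. At G399C and A400G these numbers were 10 in e35RM and 13 in e35RD. The 4 sites fall within 10 bases, with equal depths in each pair, and a read can span all of them. T582C had 15 reference reads in e35RM against 22 non-reference reads in e35RD, where 1 further read carried neither allele. With failed sites in the test, these 5 were also called, with adjusted p-values of 0.01 at G391C and G393C, 0.0009 at G399C and A400G, and 1.4e-07 at T582C. The group at the 3′ side was not, since C797A and C812G had 6 reads in e35RM and 9 allele reads in e35RD (adjusted p 0.16 each) and A822G had 6 in e35RM and 8 in e35RD (0.26).

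Failed sites were not all opposite. A428C, G568A and C590A were called reference in both lines, at depths of 11, 18 and 13 reads in e35RM and 20, 25 and 25 in e35RD. No non-reference read was seen at these 3 sites. G378A had 9 reference reads in e35RM and no call in e35RD, although e35RD had 10 reads 13 bases further on. Among the passing sites, T231G was reference in both lines (12 reads in e35RM and 14 in e35RD), as was C750G in MLOC_62051.5 (4 in e35RM and 9 in e35RD). A49G of MLOC_62051.5 was non-reference in both, with 5 reads in e35RM and 1 in e35RD and a genotype quality of 3 in each. A1018C, the site marked as low quality, had no call in either line.

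The annotation of effects that accompanies the study classes 11 of the 20 opposite sites. It lists 5 of the 7 in MLOC_62051.5 as non-synonymous, meaning that the encoded protein changes. These are G316A, G508A, G628C, A917G and the insertion at position 654, whereas G189C and G702A are synonymous. In AK249008.1 it classes 4 sites, with C503T, T536A and T746C non-synonymous and T582C synonymous. The 3 synonymous sites are at positions divisible by 3, and none of the non-synonymous single-base sites is. Of the 8 single-base opposite sites with no class given, all in AK249008.1, 3 are at such positions. Positions count from the first base of the transcript and the reading frame was not determined here, so the effect of these 8 sites is not known. The 18 single-base changes were 10 transitions and 8 transversions, with 4 and 2 in MLOC_62051.5 and 6 and 6 in AK249008.1.

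**Figure D2:**
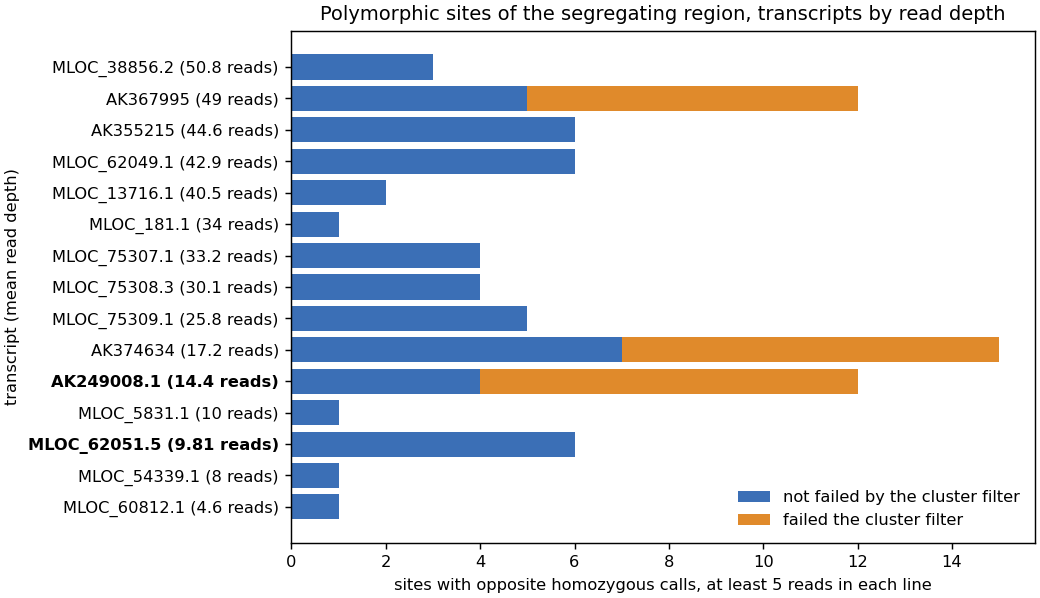
Number of sites with opposite homozygous calls and at least 5 reads in each line (x axis) for the 15 polymorphic transcripts of the segregating region (y axis), ordered by mean read depth, which is given in brackets, with sites failed by the cluster filter in orange. AK249008.1 has 12 sites, 8 of them failed, and MLOC_62051.5 has 6 with its insertion, at 2 of the lower depths of the region.

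The genes were next set among the polymorphic transcripts of the region, of which there were 15, 12 of them in the fine-mapped interval. Read depth per site is a count at single positions and does not grow with transcript length. By mean depth of both lines MLOC_62051.5 was in place 3 from the lowest, with 9.81 reads per site, and AK249008.1 in place 5, with 14.4. The other 13 ranged from 4.6 to 50.8 reads, with a median of 33.2. Neighbours in this order cannot be said to differ, as there is no spread between libraries. The transcript next below MLOC_62051.5 was MLOC_54339.1, a low confidence (LC) gene with 8 reads, 1 opposite site and 0 called. MLOC_5831.1, also LC, stood between both genes with 10 reads, 1 opposite site and 1 called. Next above AK249008.1 was AK374634, annotated as an F-box family protein, a class that picks out other proteins for degradation. It had a mean depth of 17.2 reads per site, 6 opposite sites and 5 called.

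With the sites in use, the 5 opposite sites of MLOC_62051.5 and the 4 of AK249008.1 lay within the range of the other 13 transcripts, which had 1 to 6, with 5 of them at 5 or more. AK249008.1 moved up when failed sites were counted. With every filter value, insertions and deletions included, and at least 5 reads in each line, AK249008.1 had 12 opposite sites and MLOC_62051.5 had 6. Only AK374634, with 15, had more than AK249008.1, and AK367995, annotated as a RING/FYVE/PHD zinc finger protein, had as many at a mean depth of 49 reads. In the whole table, 3 transcripts had at least 12 such sites and 6 had at least 6, and all of them belong to the segregating region. Clustered sites were also found elsewhere, with 15 of the 61 opposite sites of the other 13 transcripts failed by the cluster filter, 8 in AK374634 and 7 in AK367995. The allele depth test called 6 of the 9 opposite sites in use in the metal-related genes and 40 of 43 in the other 13 transcripts. The uncalled sites of the metal-related genes, A917G, G350A and T746C, had 11, 11 and 21 reads over both lines.

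Read depth was lower in e35RM than in e35RD in both genes. Depth was compared as a log2 ratio, without a test, since the table holds no replicates. The study's own expression analysis of these lines, with duplicates kept, did not name either gene as differentially regulated. The study proposes that high variation between replicates may have kept the number of such genes low. The mean depth of each line was taken over the single-nucleotide sites that passed the filter and reached 5 reads in either line. For AK249008.1, the mean over 6 sites was 11 reads in e35RM and 17.8 in e35RD, a log2 ratio of −0.70. Those 6 sites had 12, 5, 15, 19, 7 and 8 reads in e35RM, in order of position, and 14, 6, 35, 28, 14 and 10 in e35RD. Every site therefore had more reads in e35RD, and the same held for all 18 listed sites of AK249008.1 with a call in both lines. These depths were counted after duplicates were taken out. Whether the difference comes from the amount of RNA, counting error, duplicate removal or the placing of reads was not tested. Fewer cells that express a gene and less RNA per cell cannot be told apart in such pools.

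In MLOC_62051.5 the mean over 8 sites was 8 reads in e35RM and 11.6 in e35RD, a log2 ratio of −0.54. The direction was less even here. Of its 9 listed sites with a call in both lines, 6 had more reads in e35RD and 3 had more in e35RM, namely A49G (5 against 1), the insertion at position 654 (8 against 6) and A917G (6 against 5). Without any one site the log2 ratio ranged from −0.64 to −0.43.

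**Figure D3:**
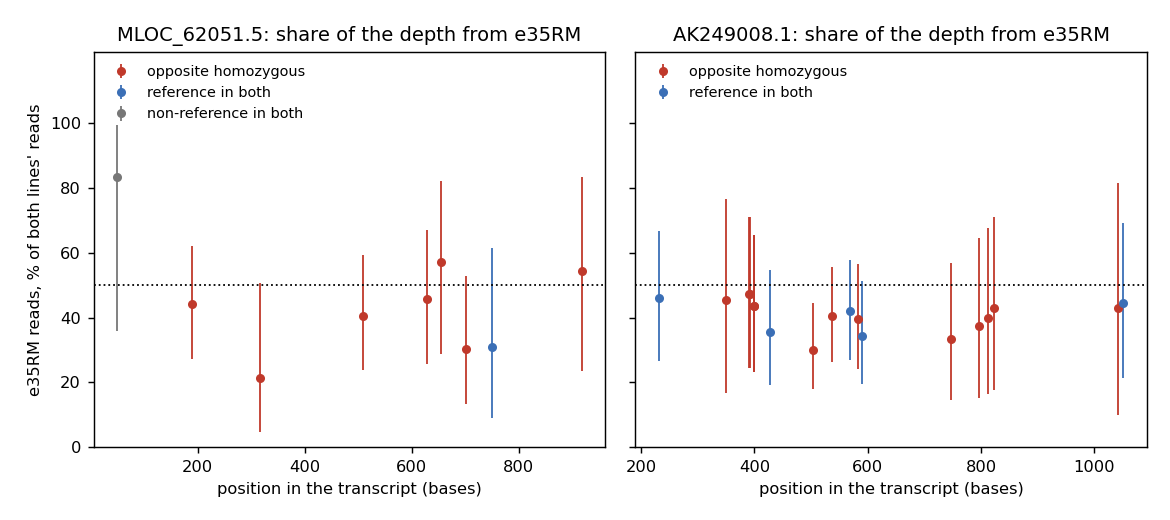
Share of the reads of both lines that came from e35RM (y axis, %) at each site with a call in both lines, by position in the transcript (x axis, bases), with 95% Clopper-Pearson intervals as bars and 50% dotted. All 18 points of AK249008.1 and 6 of the 9 of MLOC_62051.5 lie under 50%, but only the interval at position 503 of AK249008.1 leaves 50% out.

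Single sites had few reads to show such a difference. At C503T, the deepest site of AK249008.1, 15 of 50 reads came from e35RM (30%, 17.9% to 44.6%), a log2 ratio of −1.22 with an interval of −2.20 to −0.31. At T536A, 33 bases away, 19 of 47 reads did (40.4%, 26.4% to 55.7%). C503T was the only 1 of the 27 sites with a call in both lines whose interval left out 50%, and it also carried part of the mean, as the log2 ratio of AK249008.1 was −0.50 without it. At G189C, the deepest site of MLOC_62051.5, the log2 ratio was −0.34 with an interval of −1.42 to 0.71. The lines had nearly equal summed depths over the whole table (49.9% of the reads from e35RM).

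Sites were also divided by the alleles called in the lines. In AK249008.1 the log2 ratio was −0.61 over the 13 opposite sites (means of 9.23 reads in e35RM and 14.1 in e35RD) and −0.60 over the 5 sites called reference in both lines (12.4 and 18.8). The ratio of this gene was thus about the same at sites where the lines carry the same base. Its sites still share reads with the opposite sites nearby. In MLOC_62051.5 the values were −0.50 over 7 opposite sites and −1.17 at the single site with the reference base in both.

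The ratios were placed among those of all transcripts. Among 8559 transcripts with at least the mean depth of AK249008.1, 44 (0.514%) had a log2 ratio as low or lower, and the central 95% of the ratios ran from −0.44 to 0.42. Among 10378 with at least that of MLOC_62051.5, 250 did (2.41%), with the central 95% from −0.53 to 0.55. Both genes lay below these ranges, MLOC_62051.5 only just. Deeper transcripts vary less, so a band from 0.5 to 2 times the mean depth of each gene was also used. It was chosen after the data were seen and gives a closer match in depth. In this band 221 of 6758 transcripts (3.27%) were as low as AK249008.1, where the central 95% of the ratios ran from −0.77 to 0.78. For MLOC_62051.5, 834 of 6977 (12%) were as low, with 95% of the ratios from −1.14 to 1.05. Within their bands both genes lay inside these ranges, so the place of each depends on the transcripts it is set against. Neither comparison was matched for the number of sites averaged, which was 8 in MLOC_62051.5 and 6 in AK249008.1. The nearest polymorphic transcripts of the region by depth had log2 ratios of −0.36 (MLOC_54339.1), 0.74 (MLOC_5831.1) and −0.10 (AK374634).

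**Figure D4:**
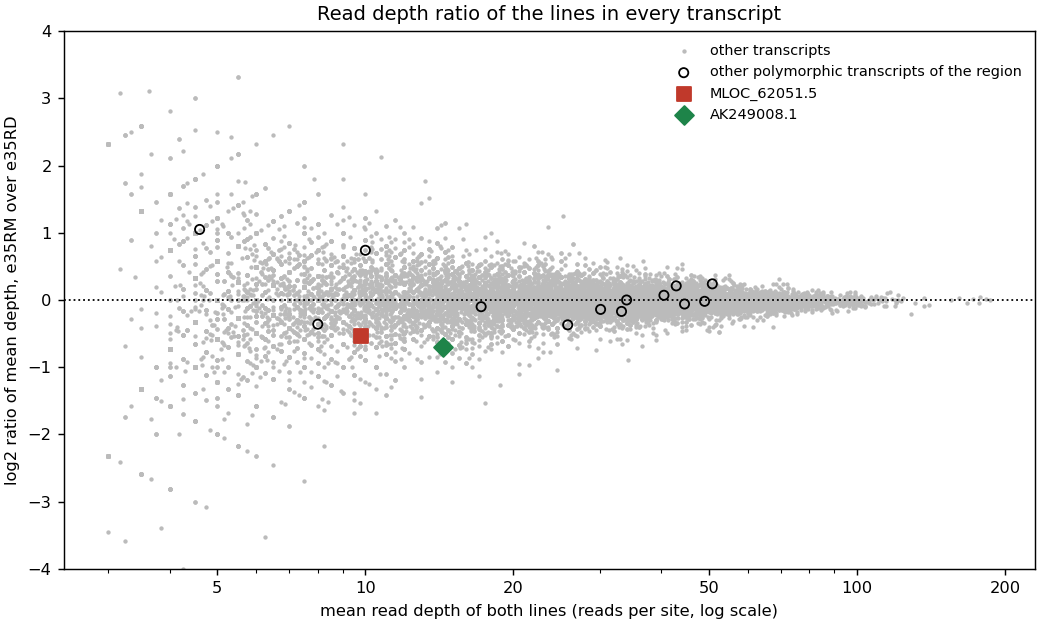
Log2 ratio of mean read depth, e35RM over e35RD (y axis), against the mean depth of both lines in reads per site (x axis, log scale), for transcripts that reach a mean of 3 reads, with the other polymorphic transcripts of the region as open circles. MLOC_62051.5 (red square, −0.54) and AK249008.1 (green diamond, −0.70) lie in the lower part of a cloud that narrows with depth.

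The genotype quality that comes with each call differed between the lines in these genes. It is a phred-scaled score that rises by 3 for each read of full weight when all reads carry the same allele, and it ends at 99. At the 20 opposite sites the score of e35RM summed to 97.3% of 3 per read, and 4 sites fell short, all of them in AK249008.1. In e35RD it summed to 77.4% over the 19 sites under 99, and 16 of these fell short. Over passing single-nucleotide sites of the whole table with at least 5 reads in each line, reference calls reached 85.1% in e35RM. Non-reference calls at such sites reached 75.7% in e35RD. The e35RD calls were therefore near the level of other non-reference calls, and those of e35RM stood above other reference calls. The sets are unlike, since the sums for these genes also hold failed sites, insertions and thinner sites. At the 6 sites where both lines had the reference base, the sums were 92.4% in e35RM and 79.6% in e35RD.

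The shortfall was uneven along AK249008.1. At G350A, e35RD had 6 reads and a genotype quality of 3, the score of a single full-weight read, against 15 for the 5 reads of e35RM. G391C and G393C had a quality of 15 for 10 reads in e35RD, and G399C and A400G had 24 for 13 reads. At T536A the quality was 54 for 19 reads in e35RM and 81 for 28 reads in e35RD, so nearly every read counted in full in both lines. At G1051C both lines were low, with a quality of 9 for 8 reads in e35RM and 12 for 10 reads in e35RD. The values toward the 3′ end did not fall steadily. At the insertion, 9 bases before G1051C, e35RM had the full 3 per read (9 for 3 reads), and e35RD had 6 for 4 reads. In MLOC_62051.5, e35RM had the full 3 per read at all 7 opposite sites, and e35RD fell short at 4 of the 7, most at G702A (27 for 16 reads). Mapping qualities of the reads were not at hand, and their part in these values was not tested.

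**Figure D5:**
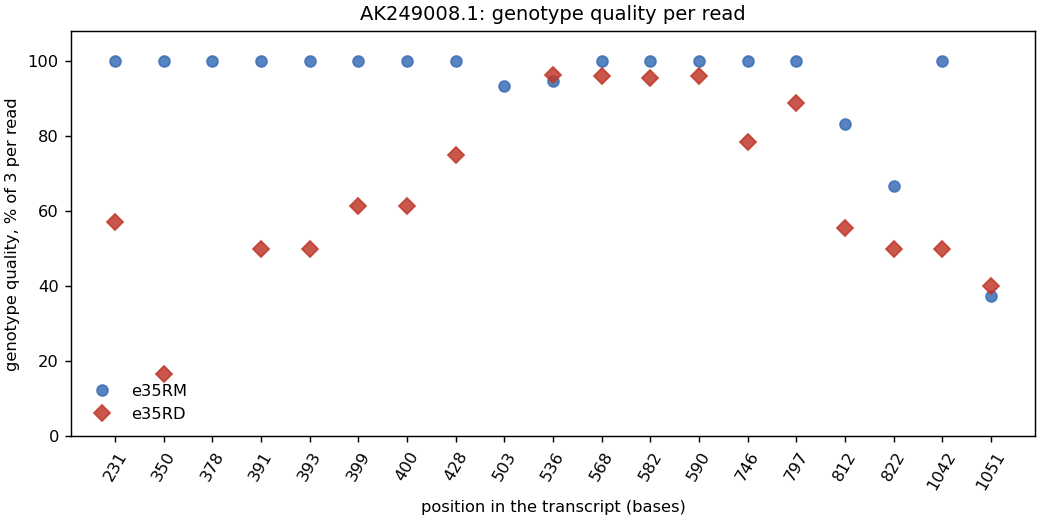
Genotype quality as a percent of 3 per read (y axis) at the sites of AK249008.1 in order of transcript position (x axis), for e35RM (blue circles) and e35RD (red diamonds); sites without a call, or at the top score of 99, have no point. e35RD is at 57.1% at position 231 and lowest at position 350 (16.7%), meets e35RM between positions 536 and 590, and both fall at position 1051, to 37.5% in e35RM and 40% in e35RD.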

How the data were processed

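The authors cleaned the reads with Trimmomatic and placed them by Bowtie2 on the HC genes and LC genes of barley. After duplicates were taken out with Picard, the UnifiedGenotyper of GATK gave the variants, for which the table has 1 column set per line, and VariantFiltration of GATK gave the filter values. The deposited read depths are counts of reads per site and line, not normalized. The deposited genotype quality is a phred-scaled score of the caller. Genotypes turned into dates by a spreadsheet, and allele depths that had lost trailing zeros, were restored with the read depth. This was checked on 1980 rows of the authors' SNP table, where calls were equal at 1980 and allele depths at 1977, and were tested on simulated data. The 5 columns of a Morex sample, which no label maps to a sample, were not used.

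Tests and intervals were computed with Python 3.11.15 and scipy 1.17.1 on the whole table. Fisher's exact tests were adjusted by Benjamini-Hochberg. Samples were grouped by their titles. The named transcripts are both genes, all their sites, and the polymorphic transcripts of the region nearest to each in read depth. AK367995 was named after its values were seen. The genes and lists were chosen with earlier results of these data known. The gene list, effect classes and primers come from the supplement of the study. Alternatives were depth minimums of 1, 10 and 20 reads, genotype quality minimums of 20 and 60, insertions and deletions, failed sites, allele shares in place of calls, share limits of 0.2 and 0.8 or none, Bonferroni adjustment, and other forms of the depth ratio. Depth summed over all sites was 2050613 reads in e35RM and 2059680 in e35RD, with a median of 10 at called sites in each.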

Additional observations from a re-analysis of the deposited data

How the results depend on the processing

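No paired analysis was possible because the 4 libraries of each line stand in a single column, and for the same reason no library could be left out. The number of opposite sites in use changed with depth and filter. With at least 10 reads in each line it was 3 in MLOC_62051.5 and 2 in AK249008.1. With at least 20 reads, and likewise with a genotype quality of at least 60, it was 0 in both, as e35RM had at most 19 reads and a quality of at most 54 at these sites. With failed sites admitted it was 12 in AK249008.1. Allele depth calls went to 0 in both genes with at least 20 reads, where no site was left to test, and to 7 in AK249008.1 with failed sites. Among the sites tested, G702A alone lost its call, with a Bonferroni-adjusted p of 0.16. The other alternatives kept the counts within 1.5 times. The log2 depth ratio kept its sign under all 13 alternatives for MLOC_62051.5 (−0.64 to −0.34) and all 11 for AK249008.1 (−1.22 to −0.41). Cleanly divided sites with 11 reads over both lines (A917G and G350A) were not called. Depth ratios of both genes lay outside the central 95% of transcripts at least as deep, and inside that of transcripts from 0.5 to 2 times as deep, a comparison added after the data were seen.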
